A study of Mus musculus with 24 samples.

Results

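The genes described here are 39 genes of DNA repair and damage signalling, out of 24015 gene symbols in the deposited liver count table. They were chosen by symbol, from what their products do, with earlier results of these data known. All 39 have a line in the table. Among them are 4 paralogs of the recombination machinery (Rad51b, Rad51c, Xrcc2 and Xrcc3), 6 other homologous recombination genes, 7 genes of break sensing and checkpoint kinases, 8 Fanconi genes, 6 nucleotide excision genes, 3 translesion polymerase genes, 3 base excision and strand break genes, and 2 genes that act on protein adducts or alkylated bases. The study asked how well RNA from archived liver shows the response to furan, a rodent liver carcinogen.

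The animals were female B6C3F1 mice, a hybrid strain, 5 to 6 weeks old when bought. For 21 days they were gavaged daily with furan at 8 mg per kg body weight in corn oil, or with corn oil alone, and killed 4 h after dosing ended. A piece of each liver was frozen, and a pair of further pieces was fixed in formalin for 18 h or 3 wk and embedded in paraffin (FFPE). The fresh-frozen libraries used here came from 3 control livers (animals 02, 04 and 06) and 3 furan livers (41, 43 and 44). Fresh-frozen control 03 and furan 42 are also labelled, but no column of the table carries their numbers, while 2 fresh-frozen columns carry numbers that no label gives. Whether those are the same animals could not be settled, and the columns were not used. Both FFPE times held 4 control livers (02, 03, 04 and 06) and 4 furan livers (41, 42, 43 and 44), so the kinds of piece share animals and are not independent of each other.

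DNA damage is met by several repair routes. Homologous recombination copies the intact sister chromatid to mend breaks and collapsed forks, with BRCA2 among the proteins that guide it, and the Fanconi proteins unhook crosslinks between the strands. Excision repair removes damaged bases or short damaged stretches, translesion polymerases copy past lesions, and the kinases ATM, ATR, CHK1 and CHK2 signal the damage to the cell cycle and to p53. Most cells of an adult liver do not divide, and furan is turned into a reactive dialdehyde by liver enzymes.

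Levels are CPM, a gene's counts relative to all counts of its library, after scaling with the trimmed mean of M values (TMM). The scaling was done within each kind of piece, so CPM of different kinds of piece are not on a common scale. Fold changes are log2 furan over control with their standard error (SE), and adjusted p is the Benjamini-Hochberg value of edgeR over all genes tested, called at 0.05. The frozen libraries were deepest, with totals of 33101755 to 58048387 counts, against 16269854 to 22494012 for FFPE 18 h and 3666173 to 11780691 for FFPE 3 wk. The common dispersion, the squared variation between libraries of a group beyond counting error, was 0.0150, 0.0284 and 0.336 in that order. It holds differences between pieces and libraries as well as between animals, and both FFPE times held the same animals. The hepatocyte markers Alb, Apoa1, Ttr, Fgb and Cps1 summed to 128389 to 141235 CPM over the fresh-frozen libraries, and 0 of the 5 passed the furan test with edgeR, DESeq2 or an unadjusted p under 0.05. Of the 4 endothelial markers Stab2 and Clec4g fell with furan in fresh-frozen liver, and the list summed to 199 to 209 CPM in control and 135 to 166 CPM in furan libraries. The 4 stellate markers summed to 271 to 285 CPM in control and 289 to 315 CPM in furan fresh-frozen libraries, and 1 of the 4 was called higher. The sums of 5 macrophage, 7 lymphocyte and 4 cholangiocyte markers overlapped between the groups. No marker was at 0 in a whole fresh-frozen group. The part of these cells in the results was not tested, and in whole tissue fewer cells of a type and less RNA per cell cannot be told apart.

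In fresh-frozen liver 10 of the 39 genes (25.6%) passed this test, beside 15.7% of the 13794 genes tested. Rises were called for Chek1, Fanca, Fancd2, Slx4, Polk, Sprtn and Mgmt, 7 genes or 17.9% beside 8.21% of all genes. Falls were called for Rad51b, Brca2 and Xpa, 3 genes or 7.69%, close to the 7.47% of all genes. The 39 were chosen with earlier results of these data known, so these shares are a description and not a test. The median log2 fold change over the 39 was -0.01. Levels of the furan and control libraries did not overlap for 16 of the 39 genes, beside 37.4% of all genes tested, so separation alone was near the background.

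**Figure D1:**
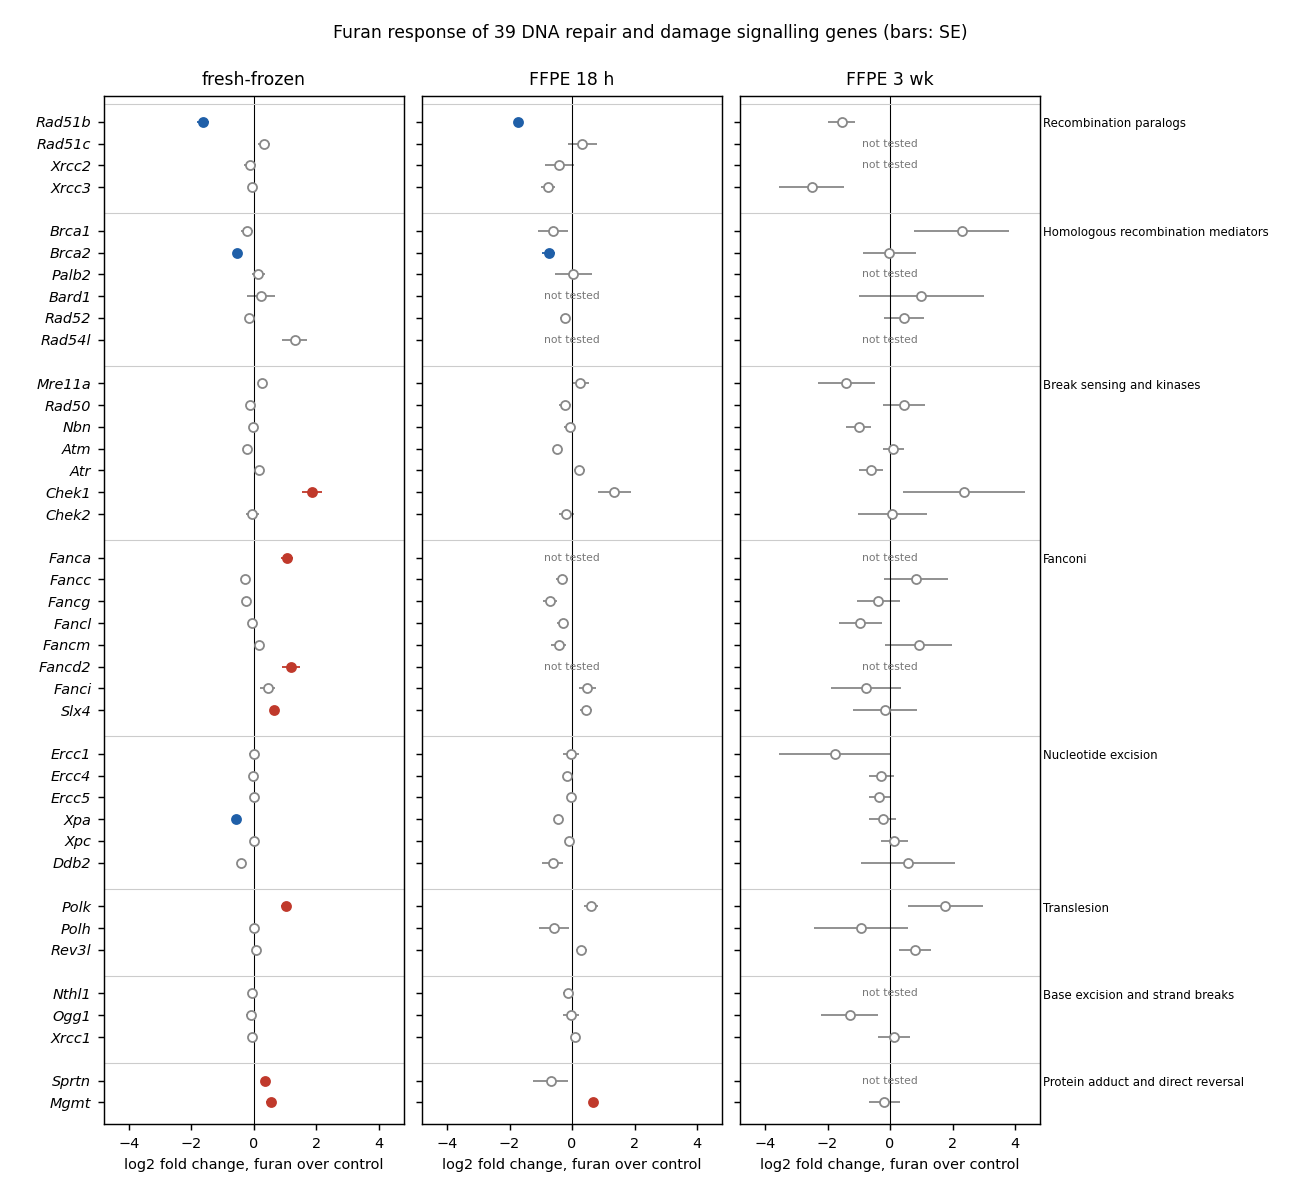
Log2 fold change, furan over control, of the 39 genes in fresh-frozen, FFPE 18 h and FFPE 3 wk liver, ordered by role, with bars for 1 SE. Red points were called higher and blue points lower, and open points did not pass. The bars widen from a median SE of 0.134 in fresh-frozen and 0.197 in FFPE 18 h to 0.845 in FFPE 3 wk liver.

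Rad51b, Rad51c, Xrcc2 and Xrcc3 encode related proteins that assist homologous recombination. Rad51b stood at 6.52, 6.26 and 4.16 CPM in the fresh-frozen control livers and at 1.93, 1.71 and 1.85 CPM in the furan livers. All furan livers lay in a narrow band under the lowest control. Its log2 fold change was -1.62 (SE 0.19, adjusted p 0.00281), a 3.07-fold lower level, and in order of p it was number 122 of the 13794 genes tested. The other 3 paralogs did not pass. Rad51c had a log2 fold change of 0.32 (SE 0.20), Xrcc2 of -0.13 (SE 0.19) and Xrcc3 of -0.07 (SE 0.12).

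Rad51b lies at chr12:79297282-79814690 on the plus strand of build GRCm38 and spans 517409 bases, while its longest annotated transcript has 2187. The counts were made on the older build mm9, so coordinates here serve only to place the genes. Its promoter is shown because Rad51b passed in both deeper kinds of piece whichever library was left out. It is the RefSeq sequence (GRCm38.p6) of the 250 bases before the first start, 5′ to 3′ on the gene's strand, with a CCAAT box in capitals, read as ATTGG because the box lies on the other strand.
Rad51b, chr12:79297032-79297281, plus strand: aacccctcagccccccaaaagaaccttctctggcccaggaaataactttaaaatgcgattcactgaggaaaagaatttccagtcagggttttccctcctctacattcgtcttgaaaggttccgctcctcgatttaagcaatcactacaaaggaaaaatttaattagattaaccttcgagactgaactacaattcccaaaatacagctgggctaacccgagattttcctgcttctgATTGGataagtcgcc

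Rad51b also fell in FFPE 18 h liver. Its control levels were 27.9, 24.9, 31.9 and 18.7 CPM and its furan levels 7.76, 8.56, 7.62 and 7.73 CPM. These groups did not overlap, and the log2 fold change was -1.71 (SE 0.15, adjusted p 2.78e-05), which put Rad51b at number 17 of 12832 genes by p. In FFPE 3 wk liver the controls had 15.6, 24.1, 19.1 and 29.4 CPM and the furan livers 3.71, 10.7, 8.85 and 7.18 CPM. The groups again did not overlap, but the log2 fold change of -1.54 (SE 0.43) did not pass over all genes (adjusted p 0.128). In the joint fits that tested the difference between these responses, it was -0.09 (SE 0.26) for 18 h less fresh-frozen, 0.09 (SE 0.55) for 3 wk less fresh-frozen and 0.12 (SE 0.41) for 3 wk less 18 h. These fits have no term for the animal and give slightly other fold changes than the separate ones. None of the 3 differences passed (adjusted p 0.998 or more). Since the pieces come from the same livers, this is 1 set of animals measured in several ways, not several experiments.

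**Figure D2:**
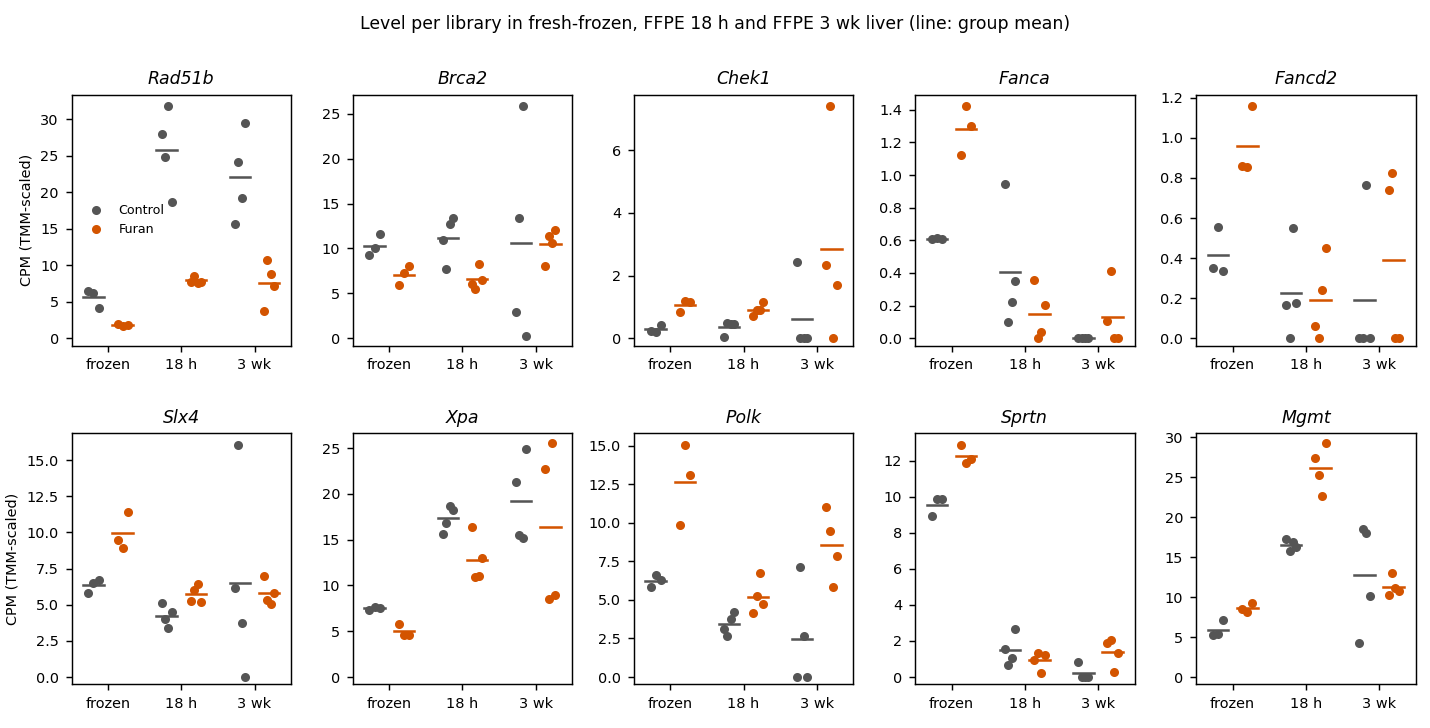
CPM in every library of the 10 genes called in fresh-frozen liver, scaled within each kind of piece, control in grey and furan in orange, with a line at the group mean. Rad51b is lower in every furan library than in any control library of the same kind of piece. The other 9 genes overlap between the groups in FFPE 3 wk liver.

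Of the 6 other homologous recombination genes only Brca2 passed in fresh-frozen liver. Brca2, which is needed for recombination at breaks, had 9.23, 10.1 and 11.6 CPM in control and 5.91, 7.32 and 8.05 CPM in furan livers. Every furan value was below every control, and the log2 fold change was -0.55 (SE 0.14, adjusted p 0.0332). The FFPE 18 h controls had 10.96, 7.67, 12.7 and 13.4 CPM and the furan livers 6.05, 5.45, 8.27 and 6.52 CPM. One furan value lay above the lowest control there, and the log2 fold change was -0.75 (SE 0.19, adjusted p 0.0300). The call was thin in both. In fresh-frozen liver it was lost without control 04 or 06 or any 1 of the furan libraries (adjusted p 0.0501 to 0.0943). With 18 h of fixation it was lost without control 02, 04 or 06 or furan 41, 42 or 44 (0.0503 to 0.0874).

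Rad54l, which encodes a DNA motor protein of recombination, was among the lowest of the 39 genes. It had 0.350, 0.307 and 0.197 CPM in control and 0.414, 0.711 and 1.04 CPM in furan livers. No furan value was as low as a control, yet the log2 fold change of 1.30 (SE 0.40) did not pass (adjusted p 0.0637). Without furan 41 it did (1.62, adjusted p 0.0352). Brca1, Palb2, Bard1 and Rad52 had log2 fold changes between -0.23 and 0.23, with SE up to 0.44 for Bard1. About 15.4% of the annotated exon bases of Rad54l are shared with Lrrc41 on the other strand, and with this unstranded kit the reads of such partners cannot be told apart.

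Among the genes of break sensing and kinases, Chek1 rose and the other 6 did not pass. Chek1 encodes the kinase CHK1, which holds back the cell cycle when replication forks stall. It had 0.234, 0.211 and 0.414 CPM in control and 0.827, 1.18 and 1.16 CPM in furan livers. The lowest furan liver was above every control, with a log2 fold change of 1.85 (SE 0.31, adjusted p 0.00959). These levels rest on few reads, 10, 11 and 21 counts in the controls and 48, 50 and 40 in the furan livers. Atm, Atr, Chek2 and the members of the break-binding complex Mre11a, Rad50 and Nbn had log2 fold changes from -0.21 to 0.26, none with an adjusted p under 0.05. Atr passed without control 06 (0.35, adjusted p 0.0294).

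Chek1 levels in FFPE 18 h liver were 0.0556, 0.492, 0.441 and 0.442 CPM in control and 0.711, 0.898, 0.892 and 1.15 CPM in furan livers. The groups did not overlap there either, and the log2 fold change of 1.35 (SE 0.53) did not pass (adjusted p 0.141). In FFPE 3 wk liver Chek1 was at 0 in 3 of 4 control libraries and in 1 of 4 furan libraries.

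Of the 8 Fanconi genes 3 rose and none fell. Fanca, a subunit of the core complex that marks crosslinks, had 0.607, 0.615 and 0.611 CPM in control and 1.12, 1.42 and 1.30 CPM in furan livers, a log2 fold change of 1.06 (SE 0.19, adjusted p 0.0121). Fancd2, the protein that the core complex tags with ubiquitin, had 0.350, 0.557 and 0.335 CPM in control and 0.862, 0.853 and 1.16 CPM in furan livers, with a log2 fold change of 1.18 (SE 0.28, adjusted p 0.0258). Slx4, the scaffold for the nucleases that cut at the crosslink, had 5.82, 6.49 and 6.70 CPM in control and 9.45, 8.95 and 11.4 CPM in furan livers. Its log2 fold change was 0.64 (SE 0.12, adjusted p 0.0120).

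The groups did not overlap for any of these 3 genes. Of them Fanca and Slx4 passed whichever library was left out, whereas Fancd2 did not pass without control 02 or 06 or any 1 of the furan libraries (adjusted p 0.0560 to 0.0801). Fanci, the partner of FANCD2, had a log2 fold change of 0.44 (SE 0.25, adjusted p 0.265). Fancc, Fancg, Fancl and Fancm lay between -0.30 and 0.16. Exon overlap with a gene on the other strand is 10.5% of the exon bases for Fanca (Zfp276) and 3.2% for Fancd2 (Fancd2os).

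The Fanca promoter is shown, in the same form, because it is 1 of 3 here with a p53 half-site. Capitals mark that half-site and a pair of CCAAT boxes.
Fanca, chr8:123318577-123318826, minus strand: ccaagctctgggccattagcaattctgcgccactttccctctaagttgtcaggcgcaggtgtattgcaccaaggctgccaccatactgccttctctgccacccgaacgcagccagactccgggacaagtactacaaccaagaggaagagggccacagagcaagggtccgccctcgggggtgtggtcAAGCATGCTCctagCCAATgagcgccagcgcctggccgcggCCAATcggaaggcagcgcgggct

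Fanca and Fancd2 had too few counts to be tested in either kind of FFPE liver. Fanca had 0.946, 0.0983, 0.220 and 0.353 CPM in control and 0.356, 0, 0.0405 and 0.201 CPM in furan livers after 18 h of fixation. The rise seen in frozen liver was not detectable there, and the values overlapped. Slx4 had 5.12, 3.98, 3.36 and 4.50 CPM in FFPE 18 h control and 5.27, 6.05, 6.45 and 5.17 CPM in furan livers. Furan values were all above the controls, and the log2 fold change of 0.44 (SE 0.19) did not pass (adjusted p 0.190).

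Chek1, Fanca and Fancd2 are set here beside markers of dividing cells in the same livers. Of 13 mitosis genes 8 rose in fresh-frozen liver and none fell, with a median log2 fold change of 1.32, among them Ccnb2 (2.04, SE 0.33), Cdc20 (2.20, SE 0.41) and Ccna2 (1.32, SE 0.25). Their summed level was 15.8, 18.0 and 12.1 CPM in control livers 02, 04 and 06 and 23.6, 40.6 and 48.8 CPM in furan livers 41, 43 and 44. Furan animal 41 had the lowest mitosis sum and the lowest Chek1 and Fanca of the furan group. Fancd2 was lowest in animal 43 (0.853 CPM, beside 0.862 CPM in animal 41). Animal 44 had the highest mitosis sum and the highest Fancd2 (1.16 CPM). Chek1 and Fanca were highest in animal 43, at 1.18 and 1.42 CPM, beside 1.16 and 1.30 CPM in animal 44. Among the other genes called higher, Polk was also lowest in animal 41, while Slx4, Mgmt and Sprtn were lowest in animal 43. Of 14 S phase genes 6 rose and 1, Tk1, fell. Their summed level was 89.5, 86.2 and 94.1 CPM in control livers 02, 04 and 06 and 91.2, 123 and 139 CPM in furan livers 41, 43 and 44. Animal 41 thus lay within the control range of the S phase sum. In FFPE 18 h liver 0 of 12 mitosis genes passed with edgeR, with 5 at an unadjusted p under 0.05 and 1 by DESeq2. Among 13 S phase genes tested there, 0 rose and 1, Tk1, fell. Whether the share of dividing cells accounts for the rise of these 3 repair genes was not tested.

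**Figure D3:**
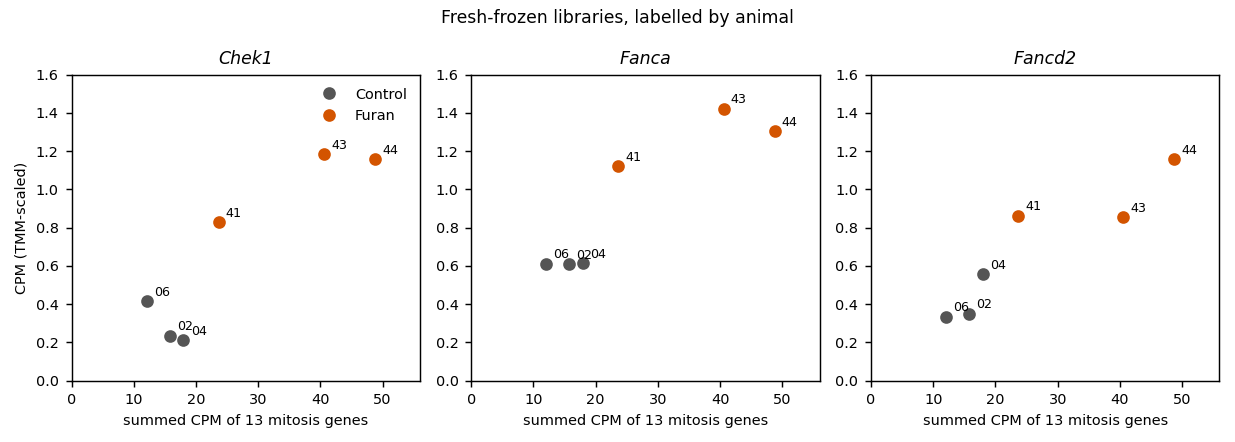
CPM of Chek1, Fanca and Fancd2 against the summed CPM of 13 mitosis genes in the 6 fresh-frozen libraries, labelled by animal, with control in grey and furan in orange. Both axes are higher in every furan than in any control library. With 2 treatment groups that lie apart, no correlation was computed.

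Of the 6 nucleotide excision genes Xpa fell and the rest did not pass. Xpa, which checks the damaged strand before it is cut, had 7.29, 7.61 and 7.54 CPM in control and 5.74, 4.60 and 4.63 CPM in furan livers. Both groups were apart, with a log2 fold change of -0.58 (SE 0.12, adjusted p 0.0160), a call that was lost without furan 43 (0.0655) or furan 44 (0.0587). Its FFPE 18 h controls had 15.6, 16.8, 18.7 and 18.3 CPM and the furan livers 16.4, 10.95, 11.03 and 12.9 CPM. Furan liver 41 lay among the controls there, and the log2 fold change was -0.44 (SE 0.14, adjusted p 0.0759), or -0.57 (adjusted p 0.0209) without that library.

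Xpc, which finds the lesions, was among the most abundant of the 39 genes and had 33.3, 31.8 and 35.1 CPM in control and 35.2, 33.2 and 30.9 CPM in furan livers. Its log2 fold change of -0.01 (SE 0.08) was small against the spread. Ddb2, which also recognises damage and is a p53 target in human cells, had 3.53, 4.17 and 4.21 CPM in control and 3.15, 2.49 and 3.36 CPM in furan livers. All furan values of Ddb2 were below all controls, and the log2 fold change of -0.41 (SE 0.15) did not pass (adjusted p 0.108). The nuclease genes Ercc1, Ercc4 and Ercc5 lay within 0.02 of 0 on the log2 scale.

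Of the 3 translesion genes only Polk passed. Polk encodes polymerase kappa, which copies past bulky adducts on guanine. It had 5.84, 6.63 and 6.26 CPM in control and 9.86, 15.0 and 13.1 CPM in furan livers. Furan livers were all above the highest control, and the log2 fold change was 1.01 (SE 0.15, adjusted p 0.00672). Polh and Rev3l had log2 fold changes of -0.01 (SE 0.11) and 0.08 (SE 0.07). The FFPE 18 h levels of Polk were 3.12, 2.65, 3.75 and 4.24 CPM in control and 4.15, 5.27, 6.73 and 4.72 CPM in furan livers. One furan value lay below the highest control, with a log2 fold change of 0.62 (SE 0.23, adjusted p 0.119).

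RefSeq gives Polk a pair of starts. Both promoters are shown because the p53 half-site, in capitals, is in 1 of them and not in the other.
Polk, inner start, chr13:96519188-96519437, minus strand: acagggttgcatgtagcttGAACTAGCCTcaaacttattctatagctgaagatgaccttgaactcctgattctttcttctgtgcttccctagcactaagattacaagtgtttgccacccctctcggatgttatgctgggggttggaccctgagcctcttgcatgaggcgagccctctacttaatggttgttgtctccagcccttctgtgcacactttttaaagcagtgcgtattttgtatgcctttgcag
Polk, outer start, chr13:96542580-96542829, minus strand: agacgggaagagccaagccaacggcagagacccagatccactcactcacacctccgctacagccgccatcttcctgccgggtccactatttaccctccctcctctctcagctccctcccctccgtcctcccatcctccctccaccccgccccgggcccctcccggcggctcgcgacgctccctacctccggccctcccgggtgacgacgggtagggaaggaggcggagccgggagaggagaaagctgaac

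Nthl1 and Ogg1 encode enzymes that remove oxidised bases, and Xrcc1 is the scaffold that brings in the ligase. Their log2 fold changes in fresh-frozen liver were -0.06 (SE 0.12), -0.11 (SE 0.16) and -0.06 (SE 0.10). With edgeR and with DESeq2 0 of the 3 passed, and 0 had an unadjusted p under 0.05.

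Mgmt, which takes alkyl groups off guanine in a single step, rose in fresh-frozen and in FFPE 18 h liver. The fresh-frozen levels were 5.28, 5.42 and 7.15 CPM in control and 8.48, 8.17 and 9.23 CPM in furan livers. No values were shared between the groups, with a log2 fold change of 0.53 (SE 0.13, adjusted p 0.0327). That call was lost without any 1 library other than control 06 (adjusted p 0.0720 to 0.0938). The FFPE 18 h levels were 17.2, 15.7, 16.9 and 16.2 CPM in control and 27.4, 25.3, 22.7 and 29.3 CPM in furan livers. The groups lay further apart there, with a log2 fold change of 0.66 (SE 0.10, adjusted p 0.00183) that passed whichever library was left out. With 3 wk of fixation it had 4.30, 18.5, 18.1 and 10.2 CPM in control and 10.3, 13.03, 11.1 and 10.8 CPM in furan livers, and the groups overlapped.

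The Mgmt promoter at its first start is shown because the rise was called in both deeper kinds of piece, although the fresh-frozen call was thin. Capitals mark an antioxidant response element, the letters TGACNNNGC, and the promoter at the other start of Mgmt holds none.
Mgmt, chr7:136894336-136894585, plus strand: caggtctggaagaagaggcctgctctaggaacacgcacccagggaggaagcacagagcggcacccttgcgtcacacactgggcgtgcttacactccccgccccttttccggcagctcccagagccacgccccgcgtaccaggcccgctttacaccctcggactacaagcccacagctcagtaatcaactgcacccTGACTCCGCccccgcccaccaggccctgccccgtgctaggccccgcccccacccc

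Sprtn, a protease that clears proteins crosslinked to DNA, had 8.93, 9.87 and 9.87 CPM in control and 12.9, 11.8 and 12.1 CPM in furan livers. Its furan values were all above the controls, with a log2 fold change of 0.36 (SE 0.08, adjusted p 0.0252). It was lost without any 1 library other than control 06 (adjusted p 0.0516 to 0.0752), and 10.4% of its exon bases overlap Gm45709 on the other strand. Sprtn levels were far lower in FFPE 18 h liver, at 1.56, 0.688, 1.05 and 2.65 CPM in control and 0.948, 1.32, 0.203 and 1.20 CPM in furan livers. Those groups overlapped.

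How the fresh-frozen calls held up differed between the 10 genes. Rad51b, Chek1, Fanca, Slx4 and Polk passed in all 6 fits that left out 1 library, and 5 of the 10 passed without furan 43 or without furan 44. When all 6 groups were fitted in 1 model with a shared dispersion, only Rad51b passed (adjusted p 0.0103), and the same held after thinning to the depth of the shallowest library (adjusted p 0.0176), with Chek1, Fanca and Fancd2 then below the filter.

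In FFPE 18 h liver 35 of the 39 genes had enough counts to be tested, and Bard1, Rad54l, Fanca and Fancd2 did not. The 3 that passed, Rad51b, Brca2 and Mgmt, are 8.57% of the 35, beside 8.39% of 12832 genes, so the count was at the background. By direction, 1 rose beside 3.92% of all genes and 2 fell beside 4.47%. Groups did not overlap for 8 genes, namely Rad51b, Chek1, Fancg, Fancl, Xrcc3, Mgmt, Atm and Slx4, beside 15.7% of all genes. Among those that did not pass, Xrcc3 had a log2 fold change of -0.76 (SE 0.23, adjusted p 0.0573) and was called by DESeq2. Fancg had -0.70 (SE 0.22, adjusted p 0.0676) and Atm, the kinase that responds to breaks, -0.47 (SE 0.15, adjusted p 0.0706).

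In FFPE 3 wk liver 31 genes were tested, all but Rad51c, Xrcc2, Palb2, Rad54l, Fanca, Fancd2, Nthl1 and Sprtn. With edgeR 0 passed, beside 0.821% of 12064 genes (0.298% higher and 0.522% lower), and 3 had an unadjusted p under 0.05, namely Rad51b, Xrcc3 and Nbn. DESeq2 called 1, Rad51b. In 1 model of all 6 groups, with a dispersion shared over the kinds of piece, 8 genes passed, beside 2030 of all genes. Rad51b, Nbn, Xrcc3 and Mre11a were lower with furan, and Rad51c, Nthl1, Palb2 and Sprtn higher. Of those higher, Rad51c, Nthl1 and Palb2 were at 0 in all 4 controls. In FFPE 3 wk liver fitted alone the common dispersion was 0.336, beside 0.0150 in fresh-frozen and 0.0284 in FFPE 18 h liver. A shared value understates the spread of the FFPE 3 wk libraries. Rad51b was also the only 1 of the 31 whose groups did not overlap, beside 8.81% of all genes. The SE of the log2 fold change was over 0.5 for 22 of the 31 genes, so changes of the sizes seen in frozen liver were not detectable there for most. Polk, for example, had 0, 7.12, 2.68 and 0 CPM in control and 11.01, 9.46, 5.82 and 7.85 CPM in furan livers, with a log2 fold change of 1.77 and an SE of 1.20.

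The difference between the furan responses of the kinds of piece was tested directly as an interaction. These fits had no term for the animal, so pieces of 1 liver were treated as independent. With the animal as a block 0 of the 39 passed in each of the comparisons. With edgeR none of the 39 genes tested differed between FFPE 18 h and fresh-frozen liver, none of 38 between FFPE 3 wk and fresh-frozen, and none of 37 between the FFPE times, and the share of all genes called was 0% in each. The unadjusted p was under 0.05 for 2, 6 and 7 of them. DESeq2 called 0, 1 and 1, the 1 being Nthl1. Fanca was 1 of the 2 for FFPE 18 h, with a difference of -2.52 (SE 0.95) on the log2 scale and an adjusted p of 1.00.

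The level of the genes themselves changed with preservation. In control livers 24 of the 35 genes tested differed between FFPE 18 h and fresh-frozen, 11 higher (31.4%) and 13 lower (37.1%). That is 68.6% beside 68% of 13034 genes (34.2% higher and 33.8% lower), so the count was at the background. With the animal as a block 27 passed, among them 22 of these 24. Rad51b was higher in the fixed pieces by 2.48 (SE 0.21) on the log2 scale, Mgmt by 1.75 (SE 0.14) and Xpa by 1.49 (SE 0.11). Among those lower, the difference was -2.48 (SE 0.33) for Sprtn, -2.17 (SE 0.38) for Polh, -1.39 (SE 0.15) for Rev3l and -1.15 (SE 0.13) for Atm. Preservation, extraction kit and number of sections change together in this design and cannot be told apart.

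Among the 35 genes tested, longer transcripts went with lower values in FFPE 18 h liver. Over the 35 genes the log2 difference and the log2 length of the longest annotated transcript had a Pearson r of -0.503 and a Spearman rho of -0.548. All points share the same 7 libraries, so this is a description. The relation was not computed over all genes, so whether it is particular to these genes was not tested. For FFPE 3 wk against fresh-frozen controls r was -0.118 and rho -0.396 over 32 genes. In FFPE 18 h liver the median length was 2724 bases for the 11 genes called higher and 4464 bases for the 13 called lower.

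**Figure D4:**
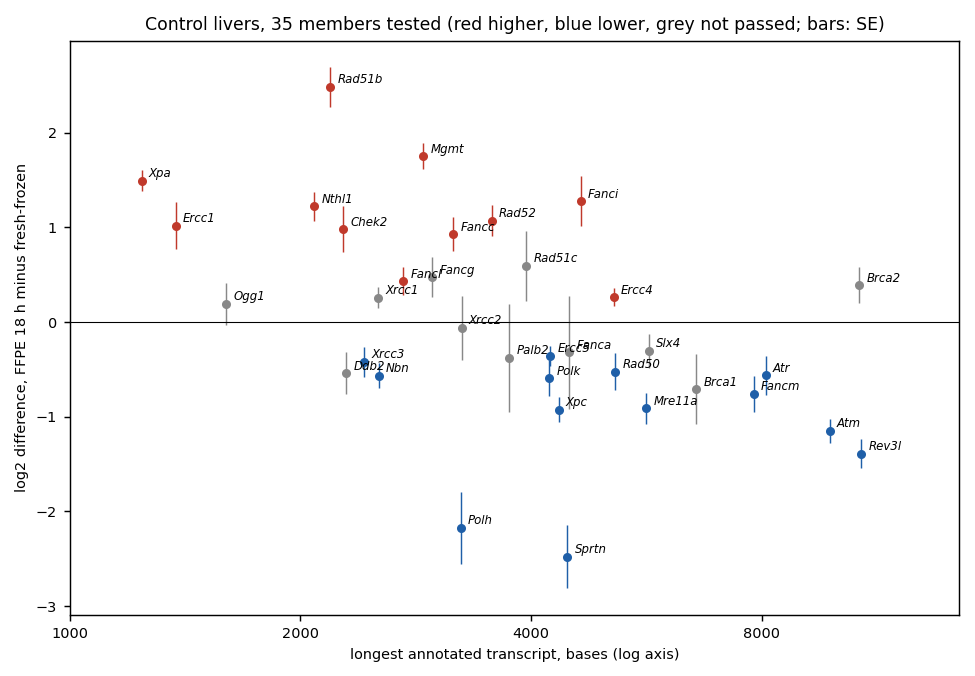
Log2 difference between FFPE 18 h and fresh-frozen control liver, with bars for 1 SE, against the length of the longest annotated transcript in bases on a log axis, for the 35 genes tested. Xpa, Rad51b and Mgmt lie high among the shorter transcripts, Atm and Rev3l low among the longest, and Sprtn and Polh lowest of all.

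Between FFPE 3 wk and fresh-frozen control liver 5 of 32 genes passed, or 15.6% beside 26.2% of 12145 genes (13.2% higher and 13% lower). Rad51b and Xpa were higher, by 1.91 (SE 0.38) and 1.30 (SE 0.34), and Rad50, Nthl1 and Sprtn were lower. With the animal as a block 2 passed, Sprtn and Rev3l, so that the calls of Rad51b, Xpa, Rad50 and Nthl1 were lost. The count was 1, Rad51b, without fresh-frozen control 02, 04 or 06, 8 without FFPE 3 wk control 02 and 10 without FFPE 3 wk control 06. Between the FFPE times 1 of 32 passed, Nthl1, beside 10.6% of 12242 genes (4.27% higher and 6.28% lower), and without FFPE 3 wk control 02 the count was 2. All genes called there ranged from 673 to 2029 over the leave-outs.

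Nthl1 had 3.34, 3.04 and 3.21 CPM in fresh-frozen controls, 5.84, 6.39, 6.17 and 6.18 CPM in FFPE 18 h controls, and 0 counts in all 4 FFPE 3 wk controls. A floor of 3 counts over that group is 0.0890 CPM and covers counting error only. On it the CPM of Nthl1 was at least 69.1-fold lower than in FFPE 18 h and at least 35.9-fold lower than in fresh-frozen controls. These folds set CPM side by side without scaling between the kinds of piece. The FFPE 3 wk furan livers had 2.01, 4.25, 0 and 3.04 CPM. They were not at 0 in 3 of 4, and Nthl1 did not pass the filter for the furan test. Rad51c, Palb2 and Fanca were also at 0 in all 4 FFPE 3 wk controls.

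Per kilobase of their longest transcript, the most abundant of the 39 genes in fresh-frozen controls were Nbn at 9.01, Xpc at 7.69 and Ercc5 at 6.53 CPM per kilobase. The least abundant were Bard1 at 0.0564, Rad54l at 0.0623, Fancd2 at 0.0751 and Chek1 at 0.0754. Rad51b, at 2.58, was number 12 of 39. Chek1, Fanca and Fancd2, which rose with furan, were among the 5 lowest, and Xpa and Polk were numbers 4 and 21.

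Other genes of the same routes were counted from separate lists, which were not compared with the 39 by a test. Of 97 other repair and checkpoint genes tested in fresh-frozen liver 8 rose (8.25%) and 0 fell, beside 8.21% of all genes higher and 7.47% lower, so the share that rose was at the background. Among them were Rad54b (0.93, SE 0.21), Usp1, which removes ubiquitin from FANCD2 (0.42, SE 0.10), the end-joining ligase gene Lig4 (0.43, SE 0.10), the TFIIH subunit genes Ercc3 (0.38, SE 0.07) and Gtf2h2 (0.44, SE 0.10), the abasic site nuclease gene Apex1 (0.46, SE 0.12) and Clspn, which helps activate CHK1 (1.12, SE 0.31). By DESeq2 10 passed, but Clspn (adjusted p 0.0464 with edgeR) was not among them. None of 7 mismatch repair genes and none of 6 other translesion genes passed with edgeR, with 1 and 3 at an unadjusted p under 0.05 and 1 each by DESeq2.

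The p53 response is given for reference. Of 23 p53 response genes 14 rose and 1, Perp, fell in fresh-frozen liver, with a median log2 fold change of 1.15, 14 of 22 rose in FFPE 18 h and 7 of 23 in FFPE 3 wk liver. Cdkn1a, which blocks the cell cycle kinases, changed by 4.97 (SE 0.10) in fresh-frozen liver, and Mdm2, which degrades p53, by 1.02 (SE 0.07). Of 92 other repair and checkpoint genes in FFPE 18 h liver, Rad23b rose (0.24, SE 0.07) and Rad51d fell (-0.40, SE 0.11). In FFPE 3 wk liver 0 of 84 passed with edgeR, with 6 at an unadjusted p under 0.05 and 1 by DESeq2.

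The promoters were searched for motifs of factors known in damage, oxidative stress and cell cycle control. RefSeq promoters of build GRCm38.p6, 250 bases before to 50 after a start, were found for 32 of the 39 genes. The p53 half-site was found in 3 of the 32 genes, Fanca, Fancg and Polk, which is 9.38% beside 9.55% of all 27025 genes with a promoter. The match was at positions -64 to -55 of Fanca and -231 to -222 of the inner start of Polk, counted from the start site, and the outer start of Polk held none in this window. Of the 3, Fanca and Polk rose in fresh-frozen liver and Fancg had a log2 fold change of -0.24 (SE 0.14). The E2F site TTTCGCGC or TTTGGCGC was in 2, Nthl1 and Rad51c (6.25% beside 0.929%), and the cell cycle homology region TTTGAA in 3 (9.38% beside 20.2%). The CCAAT box was in 18 of the 32 (56.2% beside 41.1%). The antioxidant response element TGACNNNGC was in 6 (18.8% beside 14%), of which Mgmt rose and Brca2 fell. Both strands were searched, a match is a string of letters and not a shown binding site, and the shares count genes with a match in any of their promoters.

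On GRCm38, Polk lies at chr13:96480690-96542579, Chek1 at chr9:36708482-36727065, Fanca at chr8:123268300-123318576, Slx4 at chr16:3979105-4003770 and Mgmt at chr7:136894614-137130266. None of the annotated exons of Rad51b, Polk, Chek1, Slx4 or Mgmt overlaps an exon of another gene.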

How the data were processed

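Poly(A) RNA of liver pieces was sequenced on an Illumina HiSeq from an unstranded kit. Per the labels' protocols, frozen RNA had integrity numbers above 8.9 and FFPE RNA between 1.3 and 2.4. Per the submitters' processing notes, the authors used CASAVA 1.8.2, STAR 2.3.0, build mm9 and featureCounts 1.4.4. The deposited values are raw integer counts per gene symbol, for 24015 genes. Of 24 columns, 22 matched a labelled sample by piece and animal number and took their group from its label. The remaining 2 columns carry animal numbers that no label used here gives, and were not used, and fresh-frozen control 03 and furan 42 have no column of their number.

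Each comparison was fitted on its own groups with edgeR 4.0.16 (filterByExpr, TMM, quasi-likelihood F test) in R 4.3.3, and p-values were adjusted over all genes tested at 0.05. The alternatives were DESeq2 1.42.0, RLE scaling, no filter, 1 model of all groups, thinning to 3666173 counts, the animal as a block, and each library left out. The scripts were tested on simulated data. The genes and gene lists were chosen with earlier results of these data known. Genes called in any furan comparison were given per library in fresh-frozen liver, all but Fancd2 of them in FFPE 18 h liver, and Rad51b, Mgmt and Polk in FFPE 3 wk liver. From each other pathway list at most 3 genes by smallest p were named. Tk1 and Perp were named as the only genes of their lists that fell, and Mdm2 for reference.

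Pieces of 1 animal share its number, which pairs them. After removal of group means their correlation across genes was 0.413 to 0.520 for fresh-frozen and FFPE 18 h, 0.0925 to 0.283 for fresh-frozen and FFPE 3 wk, and 0.0181 to 0.300 for the FFPE pieces. Each piece was most like its own partner in 6 of 6, 6 of 6 and 8 of 8 animals. No 2 libraries of a group agreed within sampling noise (lowest chi-square per degree of freedom 9.36). Control and furan livers come from different animals, so no block applies within a kind of piece. Gene lengths and exon overlaps came from GENCODE M21 on GRCm38. Results for some genes of these lists are not reported here.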

Additional observations from a re-analysis of the deposited data

Results flagged for a closer look

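Over the 10 genes called in a furan comparison, 1 of 4 libraries stood apart from the other 3 in 5 of 40 groups. Among the 40, Fanca in FFPE 3 wk control liver was at 0 in all 4 libraries and could not be checked. Chance alone gives about 1 in 20 groups. That rate does not hold for the 3 cases below in which the other libraries were at 0, since any count then stands apart. Rad51b was at 8.56 CPM in FFPE 18 h furan liver 42, above 7.62 to 7.76 CPM in the others. Chek1 was at 0.0556 CPM in FFPE 18 h control 02, below 0.441 to 0.492 CPM in the others. In FFPE 3 wk control livers, Chek1 was at 2.42 CPM in animal 02, Fancd2 at 0.766 CPM in animal 04 and Sprtn at 0.807 CPM in animal 02, while the other 3 libraries were at 0 for each of these genes.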

How the results depend on the processing

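In fresh-frozen liver DESeq2, RLE scaling and no filter each left 10 of the 39 genes called. In 1 model of all 6 groups 1 of the 39 and 138 of all genes passed, and after thinning to the shallowest total 1 and 746. Leaving out each library gave 5 to 9 of the 39 and 864 to 1620 genes. In FFPE 18 h liver 1 model of all groups gave 1 and 225, thinning gave 682 genes, leaving out each library gave 2 to 3 and 633 to 1285, and the 6 animals also used fresh-frozen (chosen after seeing the data) gave 594 genes. In FFPE 3 wk liver, where 0 of the 39 and 99 genes passed, DESeq2 gave 1 and 352, no filter 194 genes, 1 model of all groups 8 and 2030, and leaving out each library 0 and 17 to 173. Chosen after seeing the data, the 6 animals gave 19 genes there, and leaving out the 2 libraries with the lowest totals gave 12. Signs turned there for 3 of the 10 genes called in frozen liver: Brca2 was at 0.18 after thinning, 0.11 without control 03, 0.92 without control 04, 0.08 without furan 41 and 0.0657 in the 6 animals. Slx4 was at 0.84 without control 03 and 0.87 in the 6 animals, and Mgmt at 0.0511 without control 03 and 0.03 without control 04. Over all leave-outs Brca2 ran from -0.44 to 0.92, Slx4 from -0.58 to 0.84 and Mgmt from -0.46 to 0.0511. Of the 29 genes called in no furan comparison, 8 changed sign under some alternative there (17 of 354 values), 15 in fresh-frozen (35 of 310) and 6 in FFPE 18 h liver (23 of 371). With the animal as a replicate block, 2 genes passed the interaction of FFPE 18 h with fresh-frozen, and 2 of the 39 the FFPE 3 wk against fresh-frozen control comparison, which gave 8 without a filter. With the block no other count over the 39 moved by over 1.5 times. For the interactions DESeq2 gave 1, 38 and 99 genes, and 0, 1 and 1 of the 39, and leaving out each animal gave 0 to 3 genes and 0 of the 39. Between the FFPE times in control liver DESeq2 gave 2 of the 39 and 2140 genes, and leaving out each library 1 to 2 and 673 to 2029. For FFPE 3 wk against fresh-frozen leaving out each library gave 1 to 10 and 1978 to 4398, and for FFPE 18 h against fresh-frozen 18 to 25 and 8111 to 9299. The cause of these shifts was not tested. Chek1, Fanca and Fancd2 did not pass the filter in the thinned fresh-frozen counts.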
